A study of Homo sapiens with 24 samples.

Results

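RNA-Seq read counts of heated FaDu spheroids were compared with those of heated SAS spheroids, to describe the transcript levels reached by 2 human head and neck squamous cell carcinoma (HNSCC) lines 0.5 h after hyperthermia (HT). The members were chosen by their sample labels, as the libraries given HT alone in either line, and they are 6 of the 24 libraries of the study. The study heated and irradiated spheroids of FaDu and SAS alone and in combination and sequenced their RNA soon after treatment. FaDu was derived from a carcinoma of the hypopharynx and SAS from a carcinoma of the tongue, and each line stands for itself only, because 1 line was grown per origin.

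Each of the 2 groups holds 3 libraries of 4-day spheroids of about 400 µm that were kept at 42.5 °C for 60 min, received no irradiation and were collected 0.5 h after the heat. The replicates are described by the authors as 3 independent experiments. Read totals were 16794578, 18188944 and 17673528 in FaDu libraries 1 to 3 and 18976390, 20811396 and 20399019 in SAS libraries 1 to 3. Levels are given as CPM, each count divided by its library total after TMM scaling over the 6 heated libraries, ± is the SD of n = 3, and every log2 fold change is FaDu over SAS, so that positive values are higher in FaDu. Adjusted p values are Benjamini-Hochberg values of edgeR quasi-likelihood tests. A gene is called altered where the adjusted p is under 0.05 and the absolute log2 fold change is over 1. The unheated libraries were left out of this fit, so a difference present before heat and a difference brought about by heat cannot be told apart from the 6 libraries alone, and values of the 12 heated and unheated libraries are given beside them where they are the closest comparison.

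Libraries of a line were close to each other. The correlation of log2 CPM between replicates lay between 0.990 and 0.996. FaDu library 1 stood somewhat apart, with a chi-square per gene of 16.4 against library 2 and 19.5 against library 3, while libraries 2 and 3 differed by 4.69. In SAS the same measure was 8.30, 10.6 and 6.28 for libraries 1 and 2, 1 and 3, and 2 and 3. The first dimension of a multidimensional scaling plot separated the lines and held 92.7% of the variance.

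Heat shock proteins are chaperones that bind unfolded proteins, and their genes are switched on by heat shock factor 1 (HSF1) within minutes of heat. HSP70 proteins take up unfolded chains with help from HSP40 and HSP110 partners, small heat shock proteins hold aggregating chains, and HSP90 matures kinases and receptors. Immediate early genes such as FOS and EGR1 respond to many kinds of stress through serum response factor and the MAP kinases, and interferon-stimulated genes respond to interferon signaling through factors such as STAT2 and IRF9.

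Of 16453 genes tested, 6599 (40.1%) were altered, 3607 (21.9%) of them higher in heated FaDu and 2992 (18.2%) higher in heated SAS. The median log2 fold change of all tested genes was 0.02. The 3 libraries of one line all lay above the 3 of the other in 12592 genes (76.5%). Fold changes beyond 5 on the log2 scale were seen in 879 altered genes, 598 higher in FaDu and 281 higher in SAS. Not a single read was counted in SAS for 297 tested genes and in FaDu for 75, and 42 and 11 of these averaged at least 10 CPM in the other line. Among protein-coding genes 37.3% were altered, against 62.0% of long intergenic noncoding RNAs and 50.9% of antisense genes. Median CPM in FaDu and SAS was 23.5 and 24.7 for coding, 1.19 and 1.20 for intergenic and 1.35 and 1.05 for antisense genes. A scarce gene can pass the count filter through the line where it is high, so these shares cannot be compared between types. Antisense calls are uncertain because the counting strand is not stated, although the library kit named is directional.

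Markers of other cell types were scarce beside epithelial ones. The 12 epithelial markers summed to 14766, 17634 and 16582 CPM in FaDu and 13909, 14401 and 13574 CPM in SAS, all 12 were tested, 5 were higher in FaDu and 3 higher in SAS, beside 21.9% and 18.2% of all genes, and the most abundant was KRT17 in FaDu and KRT8 in SAS. The 9 fibroblast markers summed to 50.3, 48.7 and 65.1 CPM in FaDu and 42.0, 27.2 and 34.2 CPM in SAS, with COL1A1 first, and of the 2 tested COL1A1 was higher in FaDu (1.23) and FAP, a serine protease, higher in SAS, with a ratio of 189 (95% counting interval 64.2 to 917). The 7 endothelial markers reached 6.78, 7.12 and 6.54 CPM in FaDu and 17.0, 21.9 and 9.45 CPM in SAS, CDH5 being the most abundant and higher in SAS (−2.10), and VWF higher in FaDu (1.27). The 10 leukocyte markers reached 12.3, 11.1 and 11.2 CPM against 9.33, 8.18 and 7.67 CPM, CD14 being the most abundant and level (−0.07), CD8A (1.48) and ITGAM (1.68) were higher in FaDu, and the defining genes PTPRC and CD3E had 0 counts in all 6 libraries. The study describes the spheroids as monocultures, so no fibroblasts, endothelial cells or leukocytes were added to them. In bulk RNA, a low level in all cells and a higher level in a few cells cannot be told apart.

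Promoters are described by 250 bases upstream of the first-listed transcript start, build GRCh38.p14 with RefSeq starts, read on the strand of the gene. Capitals in the sequences mark motif matches, and matches may overlap. For heat shock genes the motif is an inverted pair of heat shock units, GAANNTTC or TTCNNGAA, each its own reverse complement, found in 3208 of 27305 promoters (11.7%). Of the chaperone genes tested, 16 of the 61 with a promoter entry held a match (26.2%), with 2 of 5 among those higher in FaDu and 7 of 20 among those higher in SAS. HSPA6, a strictly inducible HSP70 (chr1:161524290-161524539, plus strand), holds 3 matches. HSPH1, the HSP110 exchange factor (chr13:31162389-31162638, minus strand), holds 0 in this stretch. SERPINH1, the collagen chaperone HSP47 (chr11:75562003-75562252, plus strand), holds 2. A match is a description, not a site or a cause.
HSPA6: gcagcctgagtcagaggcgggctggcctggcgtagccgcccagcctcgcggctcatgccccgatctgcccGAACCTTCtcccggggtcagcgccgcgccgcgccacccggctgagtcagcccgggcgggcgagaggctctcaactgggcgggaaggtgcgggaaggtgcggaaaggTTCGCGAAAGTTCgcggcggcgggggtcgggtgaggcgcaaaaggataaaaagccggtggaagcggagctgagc
HSPH1: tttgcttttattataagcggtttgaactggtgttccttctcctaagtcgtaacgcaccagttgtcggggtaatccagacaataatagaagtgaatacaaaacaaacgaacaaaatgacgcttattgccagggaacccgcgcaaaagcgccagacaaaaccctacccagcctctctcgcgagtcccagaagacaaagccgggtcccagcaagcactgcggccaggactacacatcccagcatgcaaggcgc
SERPINH1: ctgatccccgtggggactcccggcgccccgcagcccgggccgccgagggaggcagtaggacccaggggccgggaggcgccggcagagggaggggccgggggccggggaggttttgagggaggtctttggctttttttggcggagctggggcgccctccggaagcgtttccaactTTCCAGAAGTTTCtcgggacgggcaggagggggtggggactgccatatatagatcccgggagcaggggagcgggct

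For interferon-stimulated genes the motif is a tandem GAAANNGAAA or its reverse complement TTTCNNTTTC, so that both strands are covered, found in 839 of 27305 promoters (3.07%). A match was held by 15 of the 25 listed interferon-stimulated genes with an entry (60%), and by 14 of the 22 that were higher in FaDu (63.6%). IFI27, a mitochondrial protein and the steepest of its list (chr14:94110486-94110735, plus strand), holds 2 matches. IFI6, an antiviral protein of the endoplasmic reticulum (chr1:27672193-27672442, minus strand), holds 3, and ISG15, a ubiquitin-like modifier (chr1:1013247-1013496, plus strand), holds 2. Among the genes without an entry in the promoter file are IFIT2, MX2, OAS2, OASL, IRF7, DDX58 and USP18.
IFI27: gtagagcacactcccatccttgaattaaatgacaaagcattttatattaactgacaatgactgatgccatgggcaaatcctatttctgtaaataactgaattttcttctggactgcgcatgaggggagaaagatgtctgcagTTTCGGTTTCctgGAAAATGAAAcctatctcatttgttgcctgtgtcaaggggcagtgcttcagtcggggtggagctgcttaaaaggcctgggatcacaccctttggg
IFI6: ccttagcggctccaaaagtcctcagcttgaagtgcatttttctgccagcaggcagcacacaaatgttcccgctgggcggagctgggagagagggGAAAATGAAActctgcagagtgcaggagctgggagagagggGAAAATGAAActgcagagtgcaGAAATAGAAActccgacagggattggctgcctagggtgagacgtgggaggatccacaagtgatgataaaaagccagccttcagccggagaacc
ISG15: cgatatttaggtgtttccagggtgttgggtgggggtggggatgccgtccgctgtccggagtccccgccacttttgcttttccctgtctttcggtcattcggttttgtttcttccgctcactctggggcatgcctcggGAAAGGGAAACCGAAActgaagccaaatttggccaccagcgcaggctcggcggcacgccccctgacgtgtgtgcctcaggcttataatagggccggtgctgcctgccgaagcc

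Heat shock transcripts were abundant in both lines. The first 5 lists, which hold the chaperones and their partners, took 4.35%, 4.47% and 5.08% of all counts in FaDu and 5.19%, 5.28% and 5.59% in SAS, so that the shares did not overlap. In the unheated libraries the same genes took 2.15%, 1.91% and 2.03% in FaDu and 2.23%, 2.22% and 2.0% in SAS. HSPA1B was the most abundant gene of all in FaDu libraries 2 and 3, with 0.722% and 0.803% of counts, while FTH1 led in FaDu library 1 and EEF1A1 in all 3 SAS libraries. Of 69 tested members of these lists, 6 were higher in FaDu, 20 higher in SAS and 43 not altered, beside 21.9% and 18.2% of all genes. Their median log2 fold change was −0.46 beside 0.02 for all genes, and 50 of the 69 values were negative. The response to heat differed between the lines, in the 12-library fit, for 1 of 70 members toward FaDu and 8 toward SAS, beside 2.74% of all genes in either direction.

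HSPA1B was the most abundant HSP70 gene in both lines, and HSPA6 the inducible one with the widest gap. HSPA6 read 3866, 4208 and 5030 CPM in FaDu and 1506, 1886 and 2320 CPM in SAS. All 3 FaDu libraries lay above all 3 of SAS, with a log2 fold change of 1.20 (SE 0.15, adjusted p 4.7e-05). HSPA1B, a stress-inducible HSP70, read 5989, 6822 and 7547 CPM in FaDu against 3690, 3807 and 4362 CPM in SAS, without overlap but under the fold threshold, at 0.78 (adjusted p 5.8e-05). Its near-identical neighbor HSPA1A ran the other way, with 2440, 2795 and 3053 CPM in FaDu and 3457, 3794 and 4144 CPM in SAS, and was not altered either, at −0.46 (adjusted p 0.0019). Reads shared by HSPA1A and HSPA1B, or by HSPA6 and its copy HSPA7, cannot be assigned with certainty, so the split within each pair is uncertain. The constitutive HSPA8 was level, with 3823, 3087 and 3578 CPM in FaDu, 3626, 3717 and 3770 CPM in SAS and overlapping groups (log2 fold change −0.08, adjusted p 0.40), as was the scarcer HSPA1L at −0.02 (adjusted p 0.91).

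HSPH1 was the HSP70 partner with the widest gap toward SAS. It read 507, 504 and 854 CPM in FaDu and 3344, 3236 and 3719 CPM in SAS, far apart in every library, at −2.47 (SE 0.19, adjusted p 1.3e-06). HSPA4, a second HSP110 relative, stood at 384 ± 15.4 CPM in FaDu and 848 ± 34.1 CPM in SAS (−1.14, adjusted p 1.9e-07), and its relative HSPA4L at 41.4 ± 19.4 and 115 ± 3.61 CPM (−1.47, adjusted p 4.4e-04). HSPA13, a microsomal HSP70, was also higher in SAS (−1.34, adjusted p 4.6e-06). Toward FaDu, the testis-enriched HSPA2 averaged 48.1 ± 3.43 against 5.36 ± 0.318 CPM (3.16, adjusted p 5.4e-09), and the distant relative HSPA12A 12.8 ± 1.54 against 6.28 ± 0.239 CPM (1.03, adjusted p 8.6e-05). The HSPA12A call rested near the threshold, with 0.94 without FaDu library 3 and 0.98 without SAS library 1. In all, 3 of the 13 tested HSP70 and HSP110 genes were higher in FaDu and 4 higher in SAS (21.9% and 18.2% of all genes), with a median of −0.27, and the list summed to 19108 ± 1802 CPM in FaDu and 18491 ± 1418 CPM in SAS.

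Per length, the inducible genes ranked differently in the lines. In CPM per kb, FaDu reached 2692 for HSPA1B, 1842 for HSPA6, 1180 for HSP90AB1, 1119 for DNAJB1, 1113 for HSPA1A and 886 for HSP90AA1. SAS reached 1568 for HSPA1B, 1530 for HSPA1A, 1412 for HSP90AB1, 1302 for HSPB1, 1277 for HSP90AA1, 1026 for DNAJB1 and 803 for HSPA6. HSPA6 was thus second of the heat shock genes in FaDu and seventh in SAS on this scale. Before heat HSPA6 was near the limit of counting in both lines, at 0.440 CPM in FaDu and 0.757 CPM in SAS, against 4434 and 1963 CPM after heat on the same scale. The gain was larger in FaDu by 1.98 on the log2 scale (interaction adjusted p 0.042), a call that was lost on leaving out any of FaDu control libraries 1, 2 and 3, FaDu HT libraries 2 and 3, SAS control libraries 1 and 3 or SAS HT library 2, with adjusted p between 0.052 and 0.17.

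HSP40 genes, which deliver clients to HSP70, were mostly not altered. DNAJB1, the main inducible HSP40, read 3508, 4128 and 4688 CPM in FaDu and 3540, 3705 and 4062 CPM in SAS, with overlapping groups (log2 fold change 0.12, adjusted p 0.31), and its relative DNAJB4 was level too (−0.10, adjusted p 0.66). DNAJB4 was higher in FaDu without heat (1.35) and the only HSP40 gene whose response differed past both thresholds, toward SAS (interaction −1.47, adjusted p 0.0030). Under the fold threshold, DNAJB1 had an interaction of 0.76 toward FaDu (adjusted p 0.0050). DNAJA1 and DNAJB2 had values toward SAS that are given below. DNAJA1, a farnesylated HSP40 of the cytosol, read 410, 461 and 554 CPM in FaDu and 1620, 1642 and 1766 CPM in SAS. DNAJA1 was higher in SAS by −1.82 (SE 0.11, adjusted p 1.9e-07). DNAJA4, its inducible relative, read 73.7, 98.7 and 191 CPM against 510, 454 and 579 CPM (−2.08, SE 0.29, adjusted p 8.5e-05), and no FaDu library reached the lowest of SAS. The ubiquitin-binding DNAJB2 averaged 32.5 ± 4.03 and 139 ± 14.8 CPM (−2.10, adjusted p 8.3e-08). Only the scarce DNAJC12 was higher in FaDu, at 2.08 ± 0.611 against 0.639 ± 0.298 CPM (1.70, adjusted p 0.0033). Of 15 tested HSP40 genes 1 was higher in FaDu, 3 higher in SAS and 11 not altered, beside 21.9% and 18.2% of all genes, with a median of −0.36.

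Small heat shock proteins differed in both directions. HSPB1, the abundant HSP27, read 1075, 929 and 1137 CPM in FaDu and 1912, 2091 and 2380 CPM in SAS, without overlap, at −1.02 (SE 0.10, adjusted p 8.4e-06). This is close to the threshold, and the value was −0.94 without FaDu library 2 and −0.95 without SAS library 3. Unheated HSPB1 was at −0.13 (adjusted p 0.27). Its interaction was −0.92 (adjusted p 0.0014), under the fold threshold. HSPB8, the partner of BAG3 in selective autophagy, averaged 11.5 ± 4.48 CPM in FaDu and 26.9 ± 3.45 CPM in SAS (−1.22, adjusted p 0.0012), a value of −0.93 without FaDu library 1. Unheated HSPB8 ran the other way, at 2.16, and the interaction was −3.40 (adjusted p 0.0020). CRYAB, the alpha-B crystallin, averaged 9.90 ± 0.667 and 5.10 ± 0.919 CPM and was not altered at 0.95, with a call at 1.04 without SAS library 2 and just over the threshold without FaDu library 1. It had the lowest interaction value of the named genes, −7.43 (adjusted p 1.2e-04), with 0 counts in unheated SAS, so that this value is no bound. The muscle-type HSPB6 was scarce, at 1.06 ± 0.511 and 0.266 ± 0.102 CPM (1.98, adjusted p 0.0040). Of 6 tested members 1 was higher in FaDu and 2 in SAS (21.9% and 18.2% of all genes), with a median of 0.51.

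HSP90 itself stayed under the fold threshold while 4 co-chaperones were altered. HSP90AA1, the inducible HSP90, read 4607, 4301 and 5035 CPM in FaDu and 6537, 6773 and 6798 CPM in SAS, without overlap but under the fold threshold (−0.53, adjusted p 1.4e-04). The constitutive HSP90AB1 was at −0.26 (adjusted p 0.011). STIP1, which hands clients from HSP70 to HSP90, read 264, 245 and 302 CPM in FaDu and 1014, 1067 and 1057 CPM in SAS. Its groups were far apart, at −1.95 (SE 0.09, adjusted p 3.0e-08). The co-chaperones CHORDC1 (−1.53, adjusted p 7.1e-06) and CACYBP (−1.13, adjusted p 2.5e-06) were also higher in SAS. ST13, which stabilizes the HSP70 cycle, was the exception, with 837, 860 and 857 CPM in FaDu and 416, 418 and 396 CPM in SAS (1.05, adjusted p 2.0e-07). With 1 of 15 higher in FaDu and 3 higher in SAS, beside 21.9% and 18.2% of all genes, the median of the list was −0.23, and the sums were 11832 ± 652 and 15640 ± 362 CPM.

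No gene of the chaperonins, exchange factors and other heat shock genes was higher in FaDu. Of 20 tested, 8 were higher in SAS and 12 not altered, beside 18.2% of all genes higher in SAS, the median was −0.65, and the list summed to 6148 ± 305 CPM in FaDu and 12899 ± 600 CPM in SAS. SERPINH1, which folds procollagen, read 611, 576 and 722 CPM in FaDu and 2170, 2274 and 2770 CPM in SAS (−1.92, SE 0.12, adjusted p 2.3e-07). BAG3, the exchange factor that joins HSP70 to HSPB8, read 274, 368 and 543 CPM against 1258, 1417 and 1516 CPM (−1.82, SE 0.20, adjusted p 2.0e-05). HSPD1, the mitochondrial HSP60, read 995, 995 and 1196 CPM against 2624, 2370 and 2622 CPM (−1.26, SE 0.09, adjusted p 8.1e-07). For these 3 genes every SAS library lay above every FaDu library. The disaggregase CLPB (−1.41, adjusted p 4.0e-07), the exchange factor BAG1 (−1.25, adjusted p 4.3e-06) and the chaperonin subunits TCP1 (−1.11, adjusted p 6.7e-07) and CCT8 (−1.31, adjusted p 1.0e-07) were higher in SAS too. The zinc finger gene ZFAND2A was at −1.10 (adjusted p 1.9e-04) and at −0.96 without FaDu library 2.

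SERPINH1 and BAG3 were close between the unheated lines and apart after heat. For SERPINH1 the unheated groups averaged 201 CPM in FaDu and 238 CPM in SAS, a log2 difference of −0.24, and the interaction was −1.70 (adjusted p 3.7e-06). For BAG3 the unheated difference was −0.45 and the interaction −1.39 (adjusted p 0.0029). HSPA4 likewise went from 0.04 unheated to its heated gap, with an interaction of −1.21 (adjusted p 8.3e-07), HSPA4L from 0.21, with −1.70 (adjusted p 0.0038), and HSPH1 from −1.24, with −1.25 (adjusted p 0.0071). STIP1, DNAJA1 and DNAJB2 were already at −1.36, −1.15 and −1.34 unheated. Their gaps widened after heat by less than the fold threshold. The interactions were −0.62 (adjusted p 0.0048), −0.69 (adjusted p 0.019) and −0.78 (adjusted p 0.0071).

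HSF1 itself was more abundant in SAS. It read 69.2, 56.5 and 55.7 CPM in FaDu and 189, 195 and 191 CPM in SAS, with no overlap, at −1.66 (SE 0.09, adjusted p 1.1e-07). The unheated difference was −1.75, and no difference in response was detected (interaction 0.07, adjusted p 0.85). HSBP1L1, a paralog of the HSF1 binding protein, was at −3.09 (adjusted p 1.6e-08) and the scarce HSF2BP, a meiotic partner of HSF2, at −2.04 (adjusted p 2.9e-04). Of 7 tested factors and regulators, 3 were higher in SAS and none in FaDu, beside 18.2% and 21.9% of all genes, and the median was −0.30.

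Genes of the endoplasmic reticulum differed little as a list. Of 28 tested, 4 were higher in each line and 20 not altered, beside 21.9% and 18.2% of all genes, and the median was −0.09, or −0.03 without FaDu library 3. CRELD2, a disulfide isomerase-like protein, averaged 242 ± 12.3 CPM in FaDu and 31.1 ± 1.62 CPM in SAS, without overlap (2.96, SE 0.08, adjusted p 1.2e-09). The sensors ERN1 (−1.30, adjusted p 3.1e-06) and EIF2AK3 (−1.43, adjusted p 1.8e-05) were higher in SAS, and the transcription factor XBP1 was not altered (0.39). The abundant chaperone HSP90B1 was not altered, at −0.21 (adjusted p 0.022), although every SAS library lay above every FaDu library.

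In the integrated stress response, 5 of 23 tested genes were higher in FaDu and 2 higher in SAS, beside 21.9% and 18.2% of all genes, with a median of 0.28 that was 0.15 without SAS library 1. ATF3, a stress-induced transcription factor, read 50.3, 73.0 and 95.5 CPM in FaDu and 35.7, 32.9 and 30.6 CPM in SAS. The groups did not overlap and the log2 fold change was 1.14 (SE 0.19, adjusted p 3.3e-04), with 0.92 and no call without FaDu library 3. NUPR1, a small chromatin protein, averaged 6.56 ± 1.37 CPM in FaDu and 0.227 ± 0.350 CPM in SAS (4.81, adjusted p 3.9e-05), a value of 7.62 without SAS library 3, which held most of the few SAS counts. TRIB3, a pseudokinase that restrains ATF4, was higher in SAS, at 16.6 ± 5.35 against 71.4 ± 6.33 CPM (−2.11, adjusted p 3.0e-06). ATF4 (0.85, adjusted p 1.7e-05), DDIT3 (−0.73, adjusted p 2.4e-04) and the phosphatase subunit PPP1R15A (−0.69, adjusted p 6.2e-05) stayed under the fold threshold, as did the most abundant member, the amino acid carrier SLC7A5 (0.68, adjusted p 9.6e-05). Without heat ATF3 was at −1.28 and PPP1R15A at −2.26, and their responses differed toward FaDu, by 2.40 (adjusted p 2.1e-04) and 1.55 (adjusted p 1.2e-05). The proteasome and ubiquitin list was the most even of all, with 1 of 33 higher in FaDu, PSMC1 (1.08, adjusted p 1.8e-07), and 1 higher in SAS, PSMB2 (−1.03, adjusted p 1.3e-06). PSMB2 was at −0.95 without FaDu library 3 and just under the threshold without SAS library 2, where 1 member of the list remained altered.

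Immediate early genes were the heat-related list with most members higher in FaDu. Of 37 tested, 18 were higher in FaDu, 7 higher in SAS and 12 not altered, beside 21.9% and 18.2% of all genes, and the median was 0.99. FOS, an AP-1 subunit, read 1735, 1732 and 1578 CPM in FaDu and 205, 221 and 179 CPM in SAS. EGR1, a zinc finger factor, read 1590, 1572 and 1514 CPM in FaDu and 516, 546 and 505 CPM in SAS. Both were high in all FaDu libraries and lower in all SAS libraries, at 3.06 (SE 0.09, adjusted p 3.2e-09) for FOS and 1.58 (SE 0.07, adjusted p 2.3e-08) for EGR1. The widest gap was that of EGR4, with 84.1, 127 and 129 CPM against 2.91, 4.01 and 1.89 CPM (5.26, SE 0.24, adjusted p 4.1e-08). Chosen after the values were seen, the nuclear receptor NR4A1 averaged 863 ± 168 CPM in FaDu and 43.8 ± 2.83 CPM in SAS (4.30, adjusted p 4.7e-09).

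The SAS side of this list was held by other genes. IER5, which promotes dephosphorylation of HSF1, read 720, 627 and 616 CPM in FaDu and 1797, 1660 and 1686 CPM in SAS, without overlap (−1.39, SE 0.08, adjusted p 1.7e-07). CTGF, a matricellular target of YAP1, averaged 6.32 ± 0.872 and 48.6 ± 8.98 CPM (−2.94, adjusted p 1.3e-07), and CYR61, a gene of the same family chosen after the values were seen, 220 ± 13.2 and 673 ± 64.2 CPM (−1.61, adjusted p 9.4e-08).

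Before heat the list leaned to SAS. In the unheated libraries 6 of the immediate early genes were higher in FaDu and 19 higher in SAS, beside 21.2% and 17.5% of all genes tested without heat, with a median of −1.03. IER5 (−2.07), CTGF (−2.83) and CYR61 (−5.61) were thus on the SAS side before heat as well as after it. The response to heat differed toward FaDu for 24 of the 37 and toward SAS for none. Of all 17219 genes it differed toward FaDu for 215 and toward SAS for 256, 2.74% in either direction. FOS was at 0.01 unheated with an interaction of 3.02 (adjusted p 4.4e-05), or 2.43 without SAS control library 3, and EGR1 at −2.45 with 4.00 (adjusted p 3.8e-06), or 3.45 without the same library. For EGR1 the SAS level was 508 CPM unheated and 538 CPM heated on the common scale of the 12 libraries, while FaDu stood at 93.0 and 1582 CPM. EGR3 (5.0, adjusted p 7.3e-07), ARC (5.53, adjusted p 1.5e-06) and EGR4 (6.32, adjusted p 1.9e-07) had the highest interaction values of the list, although ARC, a synaptic scaffold gene, was not altered after heat (0.30, adjusted p 0.084). EGR1, EGR3, EGR4 and IER3, chosen after the values were seen, were altered in opposite directions before and after heat. JUN, an AP-1 partner of FOS chosen in the same way, was at −1.13 before heat and at the threshold after it, with 1.0 in the fit of the heated groups, 0.98 and no call in the 12-library fit, 0.99 with a replicate block, 0.85 without FaDu library 1, 0.98 without SAS library 2 and 0.93 without SAS library 3.

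**Figure D1:**
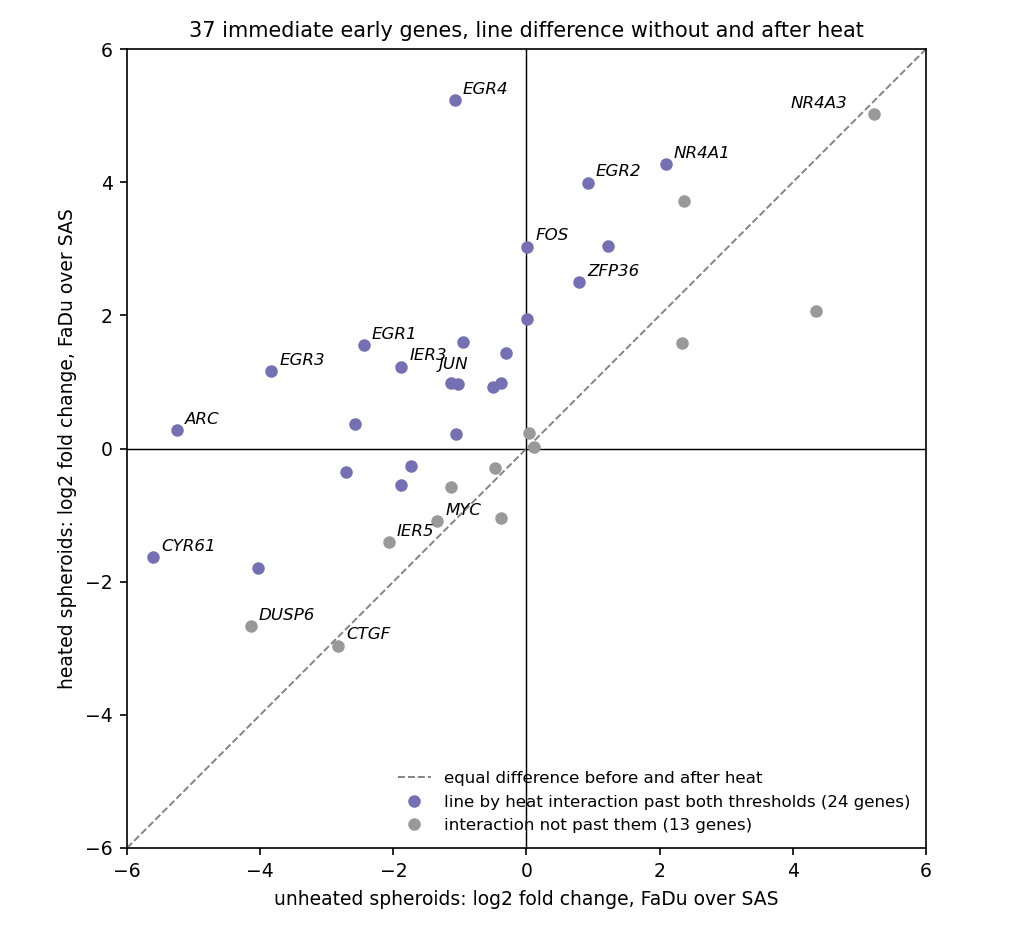
Log2 fold change of FaDu over SAS for 37 immediate early genes, unheated on the horizontal and heated on the vertical axis, from the 12-library fit; purple marks the 24 genes whose interaction passes both thresholds and grey the other 13, and the dashed line is an equal difference. Most points lie above the line.

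Across all genes, lines and heat met in fewer places. Of the 6595 heated differences with an unheated test, 5363 (81.3%) were altered with the same sign without heat. Another 1203 were not altered without heat, and 29 had the opposite sign. Of the 1203, only 170 also passed both thresholds in the interaction test. For the rest, no difference in response was called. Heated calls came from the fit of the heated libraries alone, and unheated calls from the joint fit with the unheated libraries. The response to heat differed between the lines for 471 of 17219 genes (2.74%), 215 toward FaDu and 256 toward SAS. Toward FaDu the highest named values were EGR4, the antisense gene AC010271.1 (5.79, adjusted p 0.0061), ARC, EGR3 and AC027290.2 (4.59, adjusted p 0.0027). The AC010271.1 value reached 6.45 with a library left out, and its call was lost without SAS control library 3 (5.33, adjusted p 0.058). Its call is also uncertain because the counting strand is not stated. Toward SAS they were CRYAB, the ribonuclease gene PNLDC1 (−6.96, adjusted p 0.026), HSPE1-MOB4 (−5.95, adjusted p 0.0032), the sestrin gene SESN3 (−5.83, adjusted p 1.6e-05) and TNFSF14 (−5.39, adjusted p 7.3e-07). The PNLDC1 call was lost without FaDu control library 3 (−5.96, adjusted p 0.17). It was also lost, at nearly the same value, without SAS control library 1 (−7.00, adjusted p 0.051) or 2 (−6.98, adjusted p 0.052). Unheated SAS had 0 counts of PNLDC1. HSPE1-MOB4 is a readthrough of HSPE1 into its neighbor, averaged 0.111 ± 0.0960 CPM in heated FaDu and 9.91 ± 1.75 CPM in heated SAS, and cannot be separated with certainty from reads of the overlapping genes. TNFSF14, a T-cell costimulator, averaged 1.35 ± 0.177 and 16.4 ± 1.79 CPM after heat (−3.60, adjusted p 6.0e-08).

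Cytokine and chemokine genes leaned to FaDu. Of 26 tested, 12 were higher in FaDu and 4 higher in SAS, beside 21.9% and 18.2% of all genes, and the median was 0.93, or 0.72 without FaDu library 3. CXCL8, the neutrophil chemokine, read 218, 329 and 356 CPM in FaDu and 5.60, 5.99 and 4.88 CPM in SAS, far apart in all libraries (5.77, SE 0.20, adjusted p 7.5e-09). CXCL10, an interferon-induced chemokine, was at 4.41 ± 0.198 CPM in FaDu and not detectable at this depth in SAS, at least 83.6-fold. CCL2, a monocyte chemokine, was not detectable in FaDu and at 2.44 ± 0.684 CPM in SAS, at least 44.8-fold. Such floors set the empty group to 3 counts and, like the intervals of ratios given below, cover counting error only. List medians with these genes at their bounds equal the medians given.

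Interferon-stimulated genes were nearly all higher in FaDu. Of 33 tested, 30 were higher in FaDu and none in SAS, beside 21.9% and 18.2% of all genes, the median was 4.18, and the list summed to 8371 ± 612 CPM in FaDu and 768 ± 47.3 CPM in SAS. IFI27 read 2044, 1969 and 1966 CPM in FaDu and 0.549, 0.254 and 0.630 CPM in SAS. IFI6 read 653, 609 and 604 CPM in FaDu and 3.84, 4.62 and 4.73 CPM in SAS, and ISG15 644, 469 and 469 CPM against 10.4, 8.48 and 10.3 CPM. All 3 were high in FaDu and low in SAS, at 12.02 (SE 0.16, adjusted p 3.2e-11), 7.14 (SE 0.10, adjusted p 4.7e-11) and 5.76 (SE 0.16, adjusted p 2.0e-09). OAS3, a sensor of double-stranded RNA chosen after the values were seen, averaged 952 ± 93.3 and 94.6 ± 9.11 CPM (3.33, adjusted p 3.2e-09), and the apoptosis factor XAF1 24.1 ± 1.47 CPM against no count, at least 458-fold. STAT2 (0.15), IRF1 (0.16) and EPSTI1 (0.35) were the members not altered. Without heat IFI6 was at 7.30 and ISG15 at 5.67. The response to heat differed for 3 of the 33 members, 1 toward FaDu and 2 toward SAS, beside 2.74% of all genes in either direction. Toward SAS they were STAT2, which was at 2.03 without heat (interaction −1.90, adjusted p 1.6e-05), and IFI27 (−3.24, adjusted p 0.0073), whose value was −6.03 without SAS control library 3, the only unheated SAS library with a count. IFIT2, named after its values were seen, was the member toward FaDu (1.66, adjusted p 4.0e-04).

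Antigen presentation followed the same direction. Of 19 tested genes, 15 were higher in FaDu and 1 higher in SAS (21.9% and 18.2% of all genes), with a median of 1.68 and sums of 6558 ± 157 and 1434 ± 70.8 CPM. HLA-B (3.60, adjusted p 1.5e-09) and HLA-C (3.35, adjusted p 4.1e-10), class I heavy chains chosen after the values were seen, were higher in FaDu. B2M, the class I light chain, read 1371, 1479 and 1466 CPM against 513, 493 and 477 CPM, without overlap (1.54, SE 0.07, adjusted p 3.1e-08). HLA-DRA, a class II chain, had a ratio of 1063 toward FaDu with an exact 95% counting interval of 190 to 42039. CD274, the checkpoint ligand PD-L1, was the 1 gene higher in SAS, at 4.94, 1.71 and 2.77 CPM in FaDu and 34.0, 28.3 and 18.8 CPM in SAS without overlap (−3.12, SE 0.32, adjusted p 1.2e-05).

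**Figure D2:**
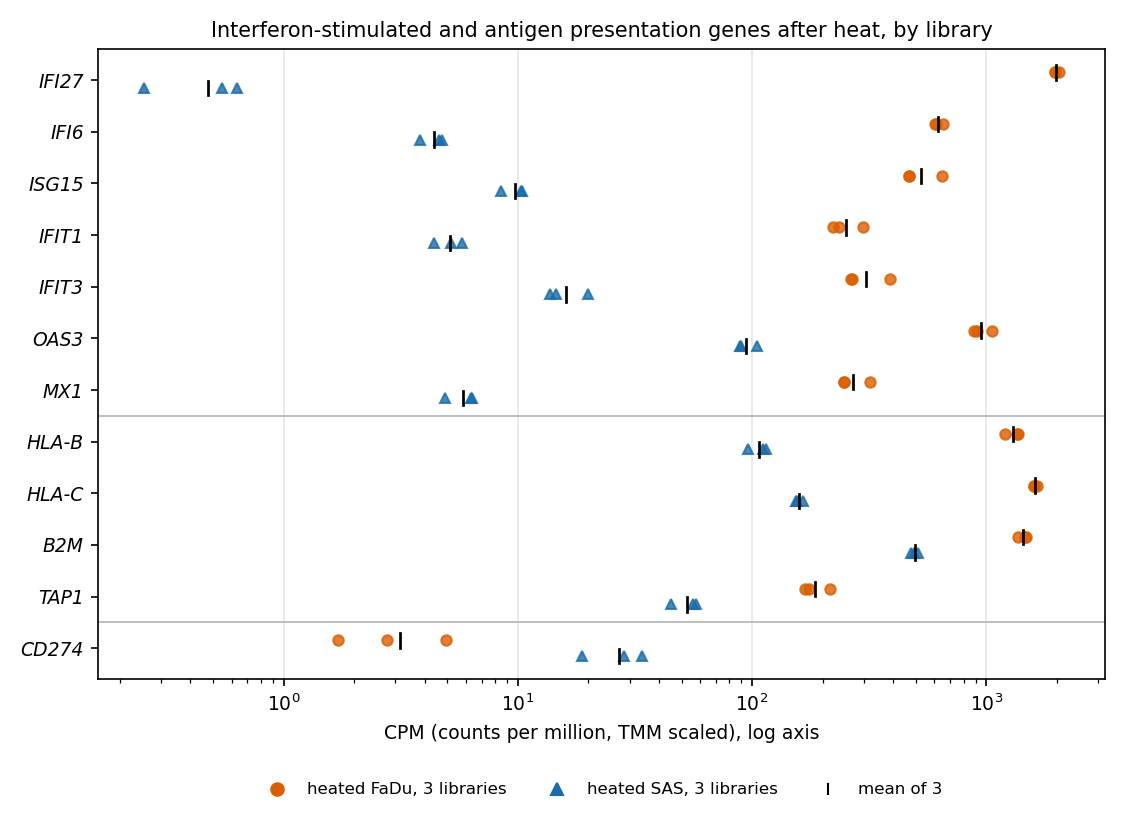
Level of interferon-stimulated genes, antigen presentation genes and CD274 in CPM on a log axis, with orange circles for heated FaDu libraries, blue triangles for heated SAS libraries and a black tick at each mean. All genes shown but CD274 lie higher in FaDu.

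Keratins separated the lines in both directions. Of 23 tested, 15 were higher in FaDu and 5 higher in SAS, beside 21.9% and 18.2% of all genes, with a median of 1.26. KRT7, a keratin of simple epithelia, read 12, 13.9 and 11.8 CPM in FaDu and 2697, 2522 and 2660 CPM in SAS. KRT4, a keratin of mucosal suprabasal cells, read 69.2, 397 and 343 CPM in FaDu and 0.165, 0.305 and 0.0525 CPM in SAS. KRT7 was high in SAS only (−7.71, SE 0.10, adjusted p 3.2e-11) and KRT4 in FaDu only (10.53, SE 0.93, adjusted p 3.4e-06), with FaDu library 1 well under the other 2. The basal keratins KRT5 (1.69, adjusted p 5.0e-08), chosen after the values were seen, and KRT17 (1.70, adjusted p 1.9e-07) were higher in FaDu. KRT18 (−1.55, adjusted p 3.6e-05) was higher in SAS. KRT8, the partner of KRT18, read 1459, 3296 and 3022 CPM in FaDu and 4876, 5132 and 4445 CPM in SAS and was not altered at −0.89 (adjusted p 0.0067), but was called without FaDu library 2 (−1.10) or 3 (−1.0).

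Squamous differentiation genes were split. Of 23 tested, 12 were higher in FaDu and 8 higher in SAS, beside 21.9% and 18.2% of all genes, with a median of 1.48. S100A8, a calcium-binding alarmin, averaged 40.2 ± 13.9 CPM in FaDu and 0.303 ± 0.214 CPM in SAS (7.04, adjusted p 2.0e-07). KLK6, a secreted kallikrein protease, averaged 22.9 ± 11.8 and 905 ± 85.1 CPM (−5.31, adjusted p 1.5e-07). Among 27 junction genes and epithelial regulators, 9 were higher in FaDu and 6 higher in SAS with a median of 0.01, which turned to −0.01 without FaDu library 1 or SAS library 1, and the adhesion gene CDH1 and the squamous factor TP63, chosen after the values were seen, were level at −0.17 and 0.14. The abundant CTNNB1, the adherens junction catenin, averaged 323 ± 3.59 CPM in FaDu and 1038 ± 8.14 CPM in SAS (−1.68, adjusted p 9.5e-09), OCLN of the tight junction was at −2.10, and the desmosomal DSG1 had a ratio of 26.7 toward FaDu (95% counting interval 7.03 to 226).

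A few matrix genes were far more abundant in SAS. Of 29 tested mesenchymal and matrix-remodeling genes, 5 were higher in FaDu and 12 higher in SAS (21.9% and 18.2% of all genes), the median was −0.63, or −0.92 without FaDu library 1. SPARC, a collagen-binding glycoprotein, read 0.230, 0 and 0.0532 CPM in FaDu and 702, 794 and 687 CPM in SAS (−12.87, SE 0.24, adjusted p 1.8e-10). The SPARC value rests on few FaDu counts and lay between −14.43 and −12.29 with single libraries left out. TGFBI, an integrin ligand induced by TGF-beta, read 37.9, 29 and 25.2 CPM against 1392, 1566 and 1677 CPM (−5.65, SE 0.16, adjusted p 2.0e-09). FN1, fibronectin, chosen after the values were seen, averaged 7.81 ± 0.737 and 1046 ± 223 CPM (−7.06, adjusted p 1.1e-09). All 3 were high in every SAS library. The collagenase MMP13 was the highest toward FaDu, at 48.8 ± 2.41 against 0.193 ± 0.333 CPM (7.93, adjusted p 8.0e-08), but all SAS counts came from library 3, without which the group is empty.

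Adhesion receptors and laminins followed the matrix. Of 28 tested, 3 were higher in FaDu and 15 higher in SAS, beside 21.9% and 18.2% of all genes, with a median of −1.15. ITGA3, a laminin receptor subunit, read 539, 421 and 424 CPM in FaDu and 1307, 1370 and 1376 CPM in SAS, without overlap (−1.55, SE 0.10, adjusted p 3.6e-07). The hyaluronan receptor CD44 (−2.14, adjusted p 6.8e-06), chosen after the values were seen, lay on the same side. ITGA4 had a ratio of 2630 toward SAS with a 95% counting interval of 472 to 103920. The hemidesmosomal collagen COL17A1 was the highest toward FaDu, at 526 ± 175 against 93.6 ± 26.1 CPM (2.49, adjusted p 7.2e-06).

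**Figure D3:**
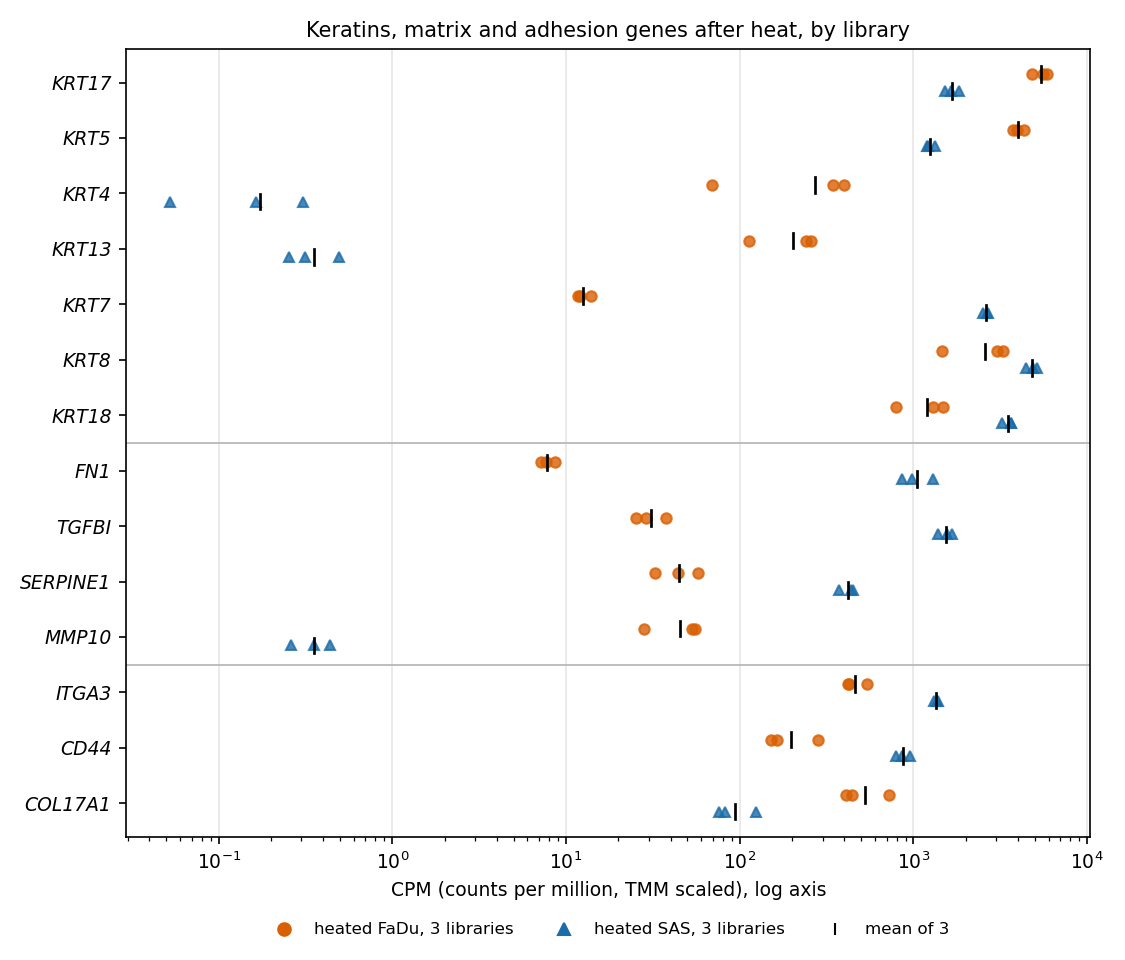
Level of keratin, matrix and adhesion genes in CPM on a log axis, with orange circles for heated FaDu libraries, blue triangles for heated SAS libraries and a black tick at each mean. KRT4, KRT13 and MMP10 lie to the FaDu side and KRT7, FN1 and TGFBI to the SAS side.

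Of 28 tested TGF-beta and BMP genes, 6 were higher in FaDu, 10 higher in SAS and 12 not altered, beside 21.9% and 18.2% of all genes, and the median was −0.64. SMAD4, the common mediator, had 0.0575, 0 and 0 CPM in FaDu and 51.5, 53.7 and 51.0 CPM in SAS, a ratio of 2889 toward SAS (95% counting interval 518 to 114150). The ligands TGFB2 (−7.61, adjusted p 1.2e-08) and INHBA (−5.43, adjusted p 1.1e-06, or −6.44 without FaDu library 1), chosen after the values were seen, were higher in SAS, BMP7 was the highest toward FaDu (2.59, adjusted p 2.1e-08), and SMAD3 was not altered at −0.97, but was called without SAS library 1 (−1.03). Of 30 receptor tyrosine kinases and ligands, 9 were higher in FaDu and 10 higher in SAS, beside the same shares, with a median of −0.34. The most abundant of them, EGFR, read 419, 560 and 535 CPM in FaDu and 433, 491 and 520 CPM in SAS, with overlapping groups (0.07, adjusted p 0.60). EPGN, a ligand of EGFR, was the highest toward FaDu (4.87), VEGFC, a lymphatic growth factor, the highest toward SAS (−4.80, or −5.83 without FaDu library 1), and FGFR3 (4.34, adjusted p 3.9e-08) and MET (−2.22, adjusted p 3.0e-08) were chosen after the values were seen.

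Genes of detoxification under NRF2 leaned to FaDu, with 12 of 30 higher in FaDu and 2 higher in SAS, beside 21.9% and 18.2% of all genes, and a median of 0.47 that lay between 0.38 and 0.72 with single libraries left out, lowest without SAS library 3 and highest without SAS library 1. AKR1C1, an aldo-keto reductase, averaged 57.7 ± 12.9 CPM in FaDu and 0.125 ± 0.0861 CPM in SAS (8.80, adjusted p 8.6e-09). The abundant glutathione transferase GSTP1 read 2668, 2627 and 2460 CPM in FaDu and 588, 660 and 679 CPM in SAS, without overlap (2.01, SE 0.08, adjusted p 1.5e-08), and its relative GSTM3 was higher in SAS (−3.34). Of 25 p53 targets 4 were higher in FaDu and 7 higher in SAS, beside the same shares of all genes, with a median of 0.20, or 0.13 without FaDu library 2. PLK2, a polo-like kinase, averaged 20.2 ± 3.37 and 123 ± 5.91 CPM (−2.60, adjusted p 2.8e-08), the nuclease AEN was at 1.50, and SFN, the 14-3-3 sigma gene, was not altered at 0.41.

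Repair genes were among the more even lists. Of 34 genes of double-strand break signaling and repair, 3 were higher in FaDu and 5 higher in SAS, beside 21.9% and 18.2% of all genes, with a median of −0.10, or −0.18 without SAS library 3. XRCC6, the Ku70 subunit, read 1314, 1238 and 1162 CPM in FaDu and 560, 587 and 589 CPM in SAS, without overlap (1.10, SE 0.07, adjusted p 3.7e-07). Its partner XRCC5, the Ku80 subunit chosen after the values were seen, averaged 304 ± 9.13 and 611 ± 24.4 CPM and ran the other way (−1.01, adjusted p 3.7e-07), at the threshold, with −0.97 without FaDu library 3, −0.99 without SAS library 2 and −0.90 with upper-quartile scaling. RAD52, a recombination mediator, was at 1.95 (adjusted p 2.5e-06) and the end-trimming nuclease DCLRE1C at −1.36.

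Among 26 apoptosis regulators, 7 were higher in FaDu and 4 higher in SAS, beside 21.9% and 18.2% of all genes, with a median of 0.08, or 0.13 without FaDu library 1. TNFRSF10D, a decoy receptor for the death ligand TRAIL, had 0 counts in all FaDu libraries and 78.5, 93.7 and 78.6 CPM in SAS, at least 1549-fold. The signaling receptor TNFRSF10A was also not detectable in FaDu at this depth and at 24.1 ± 3.13 CPM in SAS, at least 446-fold, while the ligand TNFSF10, chosen after the values were seen, was higher in FaDu (3.40, adjusted p 2.6e-08). CASP14, a caspase of the epidermis, was at 4.98, or 6.21 without SAS library 3, and the survival gene MCL1 not altered at 0.30. Hypoxia and glycolysis genes had 5 of 26 higher in each line, close to those shares, and a median of −0.08 that lay between −0.16 and 0.05 with single libraries left out, above 0 without FaDu library 2 or 3. Among them were ALDOC, a brain-type aldolase, at 5.49 (adjusted p 3.4e-08), the glucose carrier SLC2A3 at −2.44 and the abundant enolase ENO1 not altered at −0.72. Of 30 cell cycle genes 2 were higher in FaDu and 8 higher in SAS, beside the same shares, with a median of −0.27. The cyclin CCND2 was nearly confined to SAS, with 0.287, 0.468 and 1.01 CPM in FaDu and 107, 113 and 93.4 CPM in SAS (−7.44, SE 0.22, adjusted p 2.5e-09), and the replication helicase subunit MCM7 averaged 295 ± 23.9 and 929 ± 25.2 CPM (−1.65, adjusted p 3.9e-08). The cell cycle inhibitor CDKN1C was the highest toward FaDu (2.48, adjusted p 6.8e-06).

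Positional genes and the few germline genes tested differed between the lines as well. Of 34 tested HOX genes 14 were higher in FaDu and 11 higher in SAS, beside 21.9% and 18.2% of all genes, with a median of 0.05 that lay between −0.07 and 0.16 with single libraries left out, below 0 without FaDu library 1. HOXB13, a posterior member of its cluster, was at 9.26 ± 1.23 CPM in FaDu and not detectable in SAS, at least 175-fold, and HOXD4 at 4.05 ± 1.15 CPM in SAS and not detectable in FaDu, at least 75.3-fold, while HOXC13, the most abundant in SAS, was higher in SAS (−1.27, adjusted p 5.0e-05). Of 24 cancer/testis antigens found, 15 had 0 counts in all 6 libraries and 3 passed the count filter and were tested. Of these, 2 were higher in FaDu and 1 higher in SAS, beside 21.9% and 18.2% of all genes. Counts in a single line suffice to pass the filter, so these calls do not describe the list. MAGEA4 read 145, 149 and 140 CPM in FaDu and 4.88, 4.37 and 4.20 CPM in SAS (5.01, SE 0.09, adjusted p 1.4e-10), and PRAME had a ratio of 851 toward FaDu (95% counting interval 235 to 7034), while MAGEE1 was the 1 higher in SAS (−3.64).

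**Figure D4:**
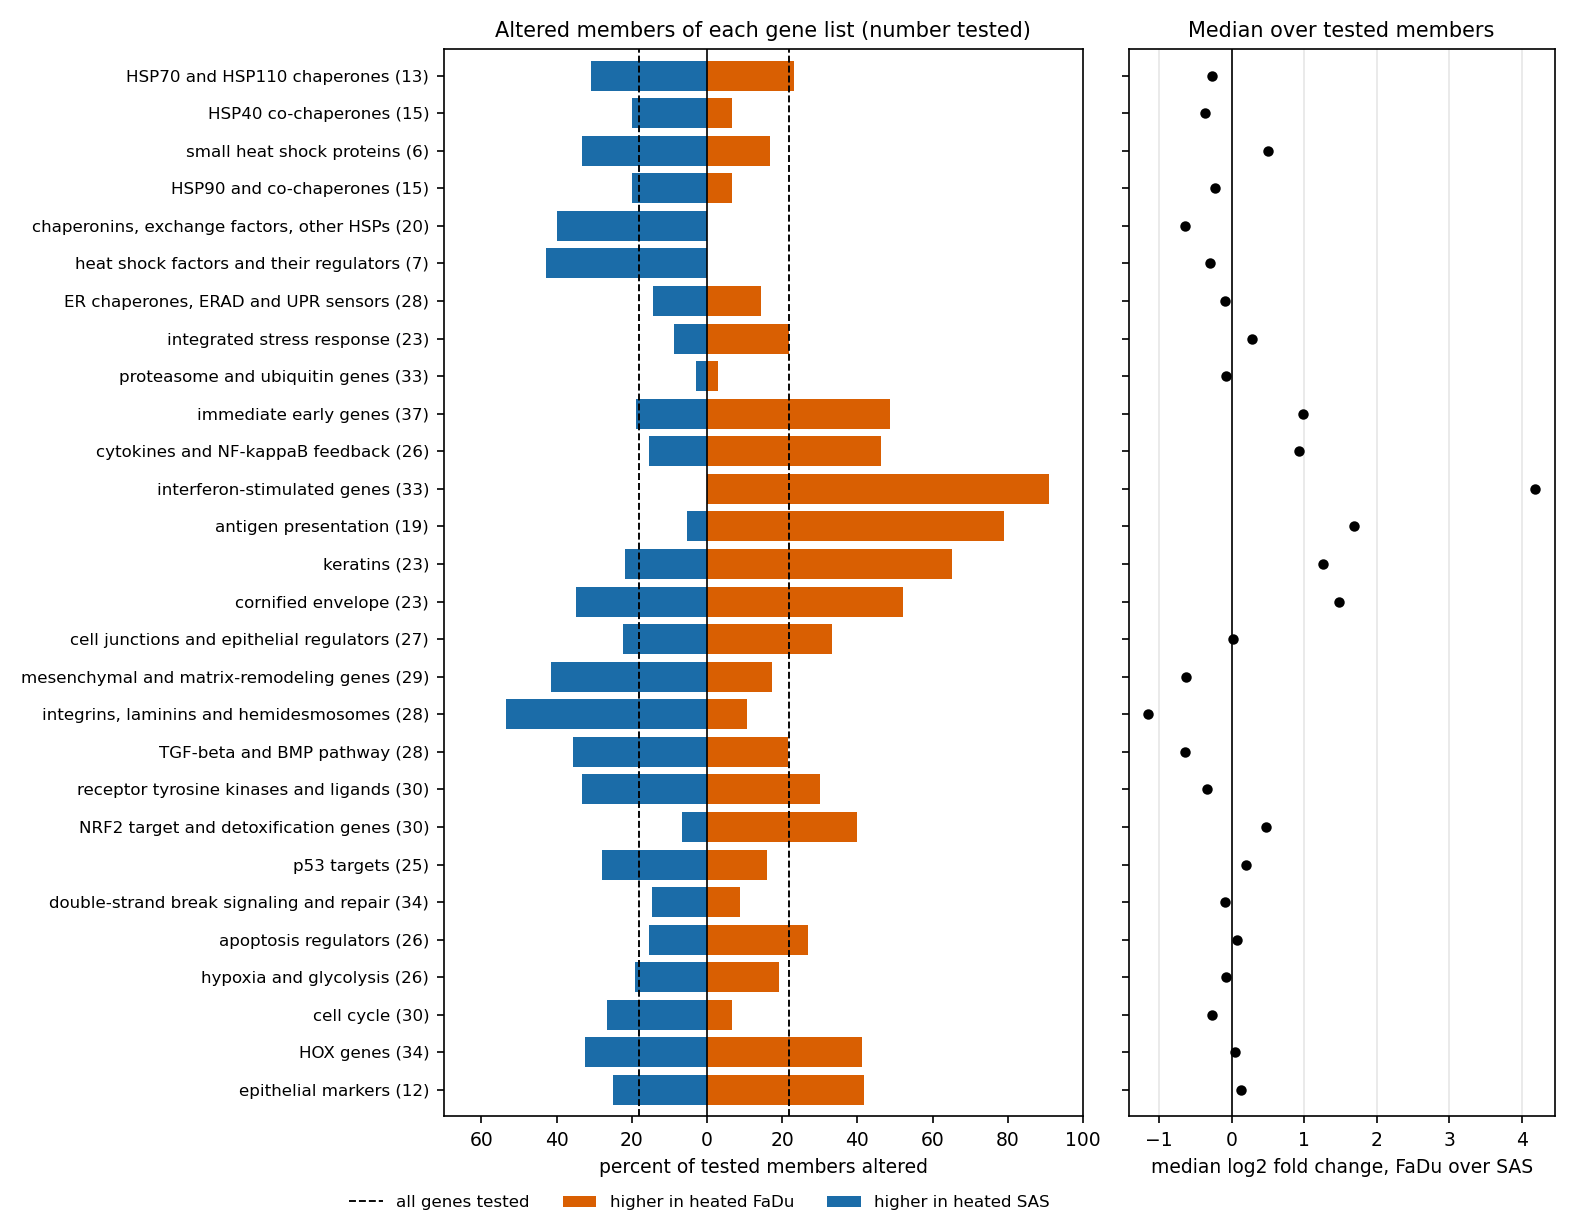
For each of 28 gene lists, bars give the percent of tested members higher in FaDu (right, orange) or higher in SAS (left, blue), with dashed lines at the 21.9% and 18.2% of all tested genes, and points give the median log2 fold change of FaDu over SAS. The interferon list reaches furthest to FaDu and the integrin and laminin list furthest to SAS.

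The steepest differences were genes with no or almost no counts in 1 line. Toward FaDu the widest floors belonged to the serine protease PRSS21 (at least 1861-fold), the protocadherin FAT1 (1627-fold), the oligosaccharyltransferase subunit TUSC3 (1229-fold) and the dynein adapter HOOK1 (1121-fold). CYB5A (862-fold), ZNF331 (856-fold), LINC01234 (694-fold), QPRT (675-fold) and GALC (605-fold) were also among the first 10. Toward SAS they were the amino acid carrier SLC38A5 (at least 2640-fold), TNFRSF10D, the mitochondrial malic enzyme ME2 (1405-fold) and the inflammasome gene NLRP2 (878-fold), with TNFRSF10A and the microprotein gene NBDY (305-fold) further down. With 1 count in FaDu, the metallothionein pseudogene MT1L had a ratio of 4799 (95% counting interval 861 to 189580), the PDZ-LIM gene PDLIM4 4571 (820 to 180580) and the cardiac ankyrin repeat gene ANKRD1 4409 (791 to 174200). FAT1 read 51.0, 93.7 and 110 CPM in FaDu, and SLC38A5 138, 142 and 148 CPM in SAS, against 0 counts in each library of the other line.

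Some of these genes are neighbors. Runs of at least 3 adjacent genes that are silent in 1 line and at 1 CPM or more in the other were collected after the values were seen. Most of these runs were silent in SAS, and only some of them are given here. FaDu was silent at ME2, ELAC1, SMAD4 and MEX3C, with 2 counts in all against 10175 in SAS, and at TNFRSF10D, TNFRSF10A-AS1, TNFRSF10A and AC100861.1, with 0 against 6642. SAS was silent at HOOK1, CYP2J2 and LINC01748, with 0 against 3863 counts in FaDu, and at ZNF813, TPM3P6 and ZNF331, with 1 against 3281. A run of 6 zinc finger and neighboring genes from ZNF808 to AC022150.4 had 1 count in SAS and 2599 in FaDu. Whether DNA is lost at these places or transcription is off was not tested.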

How the data were processed

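RNA of the spheroids was made into directional libraries and sequenced, and the authors deposited tables of raw counts per gene, 1 table per comparison and line. The bcl2fastq program and DESeq2 are named by the submitters, while the aligner, the counting program, the counting strand and the annotation are not given in the sources used here. The submitters' processing notes name the mouse build mm9, although the gene identifiers are human Ensembl identifiers.

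The heated columns of the FaDu and SAS tables were joined by Ensembl identifier, 57500 genes in all, and 12 columns that recur between tables were identical. Symbols, types and lengths come from GENCODE 29, in which 56898 identifiers were found and 602, with 0.0217% of counts, were not. The normalized tables were left out because each was scaled on its own, and the raw table of the 2 unheated groups because its columns recur elsewhere.

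Genes were filtered with a minimum count of 10 in edgeR 4.0.16 (R 4.3.3, limma 3.58.1), scaled by TMM and tested by quasi-likelihood F tests, with Benjamini-Hochberg adjustment. Calls needed both an adjusted p below 0.05 and a change of more than 1 log2 unit. Each SE was taken as the size of the change divided by the root of F. CPM, and CPM per kb of GENCODE gene length, were computed from the same counts. The interaction of line and heat was tested in 1 fit of the 12 heated and unheated libraries. Where a group had 0 counts the fold is a floor at 3 counts, and where it had 1 to 3 counts a ratio with an exact 95% interval is given, which covers counting error only. Promoters came from the supplied GRCh38.p14 RefSeq file, the first-listed start of each symbol being used. The steps were tested on simulated data, and tables and figures used Python 3.11.15, numpy 2.4.6, pandas 2.3.3, scipy 1.17.1 and matplotlib 3.10.9.

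Gene lists, 32 in number with 768 distinct symbols of which 1 was not found, are given by their counts and median only. Named were the 10 altered genes with the largest change in each direction among those at 10 CPM or more in the higher line and without overlap of the 6 libraries, all altered genes of the 6 heat shock lists, the highest and lowest altered and the most abundant member of every list, 15 genes the study names for the heat shock and unfolded protein responses, and the 5 largest interactions in each direction at 10 CPM or more in a group. Some genes that this rule names are not given. Also named after their values were seen were HSPA8, HSP90AB1, CD8A, FOS, EGR1, IFI6, ISG15, XAF1, STAT2, IRF1 and EPSTI1. The members and lists were chosen with earlier results of these data known. Alternatives tried were RLE and upper-quartile scaling, DESeq2 1.42.0, no filter or a mean CPM of at least 1, fits of 12 or 24 libraries, a replicate block across or within lines (the latter added after seeing the data), adjusted p alone, glmTreat and leaving out each library.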

Additional observations from a re-analysis of the deposited data

Results flagged for a closer look

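These results were picked out because a test of the difference itself, the interaction of line and heat in the 12 heated and unheated libraries, passed both thresholds, and no explanation was weighed. The response to heat differed between FaDu and SAS for 471 genes. Positive values mark a larger response in FaDu on the log2 scale: EGR4 6.32, AC010271.1 5.79, ARC 5.53, EGR3 5.0 and AC027290.2 4.59. Negative values mark a larger response in SAS: CRYAB −7.43, PNLDC1 −6.96, HSPE1-MOB4 −5.95, SESN3 −5.83 and TNFSF14 −5.39. Unheated SAS held 0 counts of CRYAB and PNLDC1, so these values are not bounds. The calls of PNLDC1 and of the antisense gene AC010271.1, whose counting strand is not stated, were each lost on leaving out a single control library.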

How the results depend on the processing

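The count of 6599 altered genes lay between 5480 with a mean CPM of at least 1 and 8677 without a filter among alternatives that kept both thresholds, with 6490 by DESeq2 (6468 shared), 6599 by RLE, 6601 by upper-quartile scaling, 7042 in the 12-library fit, 7580 in the 24-library fit and 6768 to 7177 with single libraries left out. With adjusted p alone it was 12048, since the fold threshold is dropped, and by glmTreat, which tests against that threshold, 4933. Upper-quartile scaling moved the median of all genes from 0.02 to 0.13 and the share of altered genes higher in FaDu from 54.7% to 59.2%. Genes whose response to heat differed numbered 471, 577 by DESeq2, 486 by RLE, 479 by upper-quartile scaling, 703 without a filter, 420 with a mean CPM of at least 1, 590 in the 24-library fit, 368 to 523 with single libraries left out, 956 with adjusted p alone and 86 by glmTreat. A replicate block gave 6564 altered genes (6519 shared) and 524 differing responses (461 shared), and a replicate block within each line, chosen after seeing the data, 678 (468 shared). The first changed none of the 139 fold changes or 23 interactions named by rule in their call, and the second, run for interactions only, none of the 23. Residuals of heated FaDu and SAS libraries of the same number correlated at 0.012 to 0.042, those of different numbers at −0.128 to 0.092, and 0 of 3 FaDu libraries matched its own number best, so the numbers do not pair the lines. Heated and unheated libraries of the same number correlated at 0.305 to 0.556 in FaDu, with 3 of 3 best with their own number, and at 0.049 to 0.254 in SAS, with 2 of 3. Of the 139 fold changes 106 kept their side of the thresholds throughout and none turned its sign while called, 130 kept it with every left-out library, and of the 23 interactions 13 kept it throughout and 19 with every left-out library. Of the genes named after their values were seen, JUN and XRCC5 alone changed their call while the thresholds were kept, XRCC5 also narrowly by DESeq2, with RLE (both just under 1 in size) and with a mean CPM of at least 1 (−0.99), and JUN without a filter (0.97) and with 24 libraries (0.95). Genes with few counts in 1 line kept their calls but moved by over 1.5 times in fold with a library left out. Such values were −14.43 for SPARC, 11.19 for KRT4, 7.73 for S100A8, 9.40 for AKR1C1 and −8.05 for CCND2. As interactions they were −7.15 for SESN3, −6.92 for HSPE1-MOB4 and 3.82 for AC027290.2. Under other scaling, filters or fits with the same thresholds, HSPB1 was at −0.92, ZFAND2A at −0.99 and PSMB2 at −0.92 with upper-quartile scaling, HSPA12A at 0.99 without a filter and 0.97 with 24 libraries, and ST13 just under 1 with 24 libraries, while SMAD3 passed it without a filter or with 24 libraries (−1.02) and CRYAB with upper-quartile scaling (1.06). The medians of the endoplasmic reticulum list and of the double-strand break list, −0.09 and −0.10, turned to 0.0124 and 0.0041 with upper-quartile scaling, which shifts all values by about 0.103. Medians near 0 also turned sign with single libraries left out, within their spread between replicates, for hypoxia and glycolysis, HOX genes and cell junctions. Counts of altered members stayed within 1.5 times for all 32 lists under other scaling and for 31 with left-out libraries. Genes with few counts are limited by depth, 3 counts being 0.0541 CPM over the FaDu group and 0.0527 CPM over the SAS group.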
